A study of Mus musculus with 10 samples.

Results

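The B cell and plasma cell genes described here are 9 symbols, Cd79a, Cd79b, Ms4a1, Cd22, Blk, Pou2af1, Mzb1, Jchain and Tnfrsf17, taken by name from the 24537 symbols of the count table and followed across 10 mouse livers. All 9 are in the table, and 8 passed the filter on low counts. Tnfrsf17 did not pass and was not tested. RNA was measured by sequencing of polyadenylated transcripts from whole liver of male mice. Every mouse, control or knockout, had received an adeno-associated virus of serotype 8 carrying the Cas9 of Staphylococcus aureus under TBG, a promoter active in hepatocytes, with a guide RNA under the U6 promoter. The 3 young control livers came from mice that were given a Rosa26 guide at 7 months and were 9 months old. The 3 old control livers came from mice that were given the Rosa26 guide at 23 months and were 25 months old. The 4 old knockout livers came from mice that were given a Cd44 guide at 23 months and were 25 months old. Guide 4 was used in replicates 1 and 2 and guide 2 in replicates 3 and 4. No untreated liver and no young knockout liver was analysed here, so the virus itself is shared by all groups. Replicate numbers only name a liver.

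B cells carry a membrane antibody as antigen receptor, and the receptor signals through the paired chains CD79A and CD79B. After activation, some B cells turn into plasma cells, which lose much of the B cell surface programme and secrete antibody; JCHAIN joins antibody units into polymers for export across mucosal surfaces, MZB1 is a chaperone of the endoplasmic reticulum that helps antibody assembly, and TNFRSF17 (BCMA) receives survival signals. The liver holds both kinds of cell as residents and passengers of its blood, together with many other leukocytes. Because bulk RNA was measured, a change in the number of cells of a type and a change in RNA per cell cannot be told apart.

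The promoters of these genes are where the B lineage factors act, and 5 of the 9 genes have an entry in the RefSeq promoter table (GRCm38.p6). The 4 sequences below belong to genes whose transcripts are followed in detail, and capitals mark letters that a search of both strands found. The motifs searched were the octamer ATTTGCAT, bound by the POU factors that POU2AF1 assists, the octamer without its last base (ATTTGCA, which the full octamer contains), the EBF1 palindrome, which is TCCC and GGGA set 2 bases apart, and AGGAAGTG, an ETS family core. They were picked after the sequences had been seen, and a match is a description of letters, not a site.
Cd79a, chr7:24897431-24897460, plus strand: cacggctgaacAGGAAGTGaggcggagttt
Cd22, chr7:30879029-30879176, minus strand: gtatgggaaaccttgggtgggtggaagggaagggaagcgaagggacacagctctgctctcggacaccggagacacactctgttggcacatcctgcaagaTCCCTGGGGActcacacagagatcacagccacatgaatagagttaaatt
Pou2af1, chr9:51213440-51213689, plus strand: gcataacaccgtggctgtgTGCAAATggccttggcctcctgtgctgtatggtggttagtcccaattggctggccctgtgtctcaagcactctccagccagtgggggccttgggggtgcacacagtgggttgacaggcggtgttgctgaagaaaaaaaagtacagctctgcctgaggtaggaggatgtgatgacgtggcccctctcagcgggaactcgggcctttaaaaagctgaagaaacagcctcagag
Jchain, chr5:88527898-88528147, minus strand: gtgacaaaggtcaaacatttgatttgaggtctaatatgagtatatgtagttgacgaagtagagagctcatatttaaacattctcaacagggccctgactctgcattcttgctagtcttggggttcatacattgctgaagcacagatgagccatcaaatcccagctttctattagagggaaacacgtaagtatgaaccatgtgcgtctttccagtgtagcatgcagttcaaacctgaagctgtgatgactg

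The ETS letters of Cd79a lie 55 to 48 bases before the RefSeq start site, the EBF1 palindrome of Cd22 lies 49 to 40 bases before it, and the shortened octamer of Pou2af1, read on the opposite strand, lies 231 to 225 bases before it. The printed stretches of Cd79a (30 bases) and Cd22 (148 bases) are parts of their 250-base windows. Both lie inside the span that GENCODE gives the gene, downstream of its GENCODE start. Whether these letters are promoter or transcribed sequence was therefore not settled. None of the 4 motifs was found in the 250 bases before the start of Jchain. Among 32851 mouse promoters of 250 bases, 3.14% hold AGGAAGTG, 0.779% hold the EBF1 palindrome, 3.56% hold ATTTGCA and 1.6% hold the full octamer.

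Libraries held between 15821198 and 21710228 counts, and a floor of 3 counts, used here as the detectable amount, equals 0.131 to 0.198 CPM, the count scaled to library size with TMM factors. Such floors cover counting error only. Cd44, the targeted gene, had 10.1 to 16.6 CPM in young control livers, 14.2 to 30.0 in old control livers and 13.1 to 29.0 in livers labelled knockout. The knockout labels were therefore not checked by the whole-liver Cd44 level (log2 fold change against old controls -0.25, SE 0.30, edgeR adjusted p 0.896), and directions in that comparison rest on the labels. The 6 hepatocyte markers summed to between 79787 and 125340 CPM in every liver, as the tissue label implies. Old control replicate 2 stood apart in leukocyte genes: its granulocyte list summed to 293 CPM, against 7.61 to 22.9 in the knockout livers. The library name of old control replicate 3 lies outside the run of the other names. Scaling by total counts instead of TMM moved the median log2 change of all genes from 0.04 to 0.34 in old against young controls, and the share of called genes that were higher from 62% to 91.6%. The changes given below were read against the TMM median.

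In old against young control livers, 6 of the 8 genes tested were called higher and 0 lower by edgeR's quasi-likelihood test (a call being an adjusted p under 0.05), where 14.1% of all 13909 genes tested were called higher and 8.66% lower. Young and old controls did not overlap for 5 of the 8, against 19.7% of all genes in the higher direction. Ms4a1, Blk, Pou2af1 and Mzb1 held under 10 counts, the minimum of the filter, in every young liver, and Cd79b in young replicates 2 and 3. They passed the filter through the old livers, so a lower call was hardly open to them. The shares of all genes do not allow for this. The called genes were Cd79b, Jchain, Ms4a1, Blk, Cd22 and Pou2af1. Cd79a and Mzb1 had a log2 change above 0 and did not pass. The median log2 change was 1.96 over the 8 genes and 0.04 over all genes tested. The levels were low throughout, so most values below rest on few reads. The count of called members depended on single livers: it was 0 without young replicate 2, 2 (Cd22 and Cd79b) without young replicate 3 or without old control replicate 2, and 8 without old control replicate 3. With only the control groups fitted, Cd22 and Cd79b were also the 2 called, of 5 members tested; Ms4a1, Blk and Mzb1 did not pass the filter in that fit and were not tested there.

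Cd79a (chromosome 7, 24897381 to 24902197, GRCm38, plus strand) encodes the first of the paired signalling chains. It had 1.41, 0.857 and 0.633 CPM in young replicates 1 to 3, 4.13, 1.96 and 1.05 in old control replicates 1 to 3, and 2.61, 5.58, 3.67 and 2.86 in knockout replicates 1 to 4. The highest young liver lay above the lowest old control, replicate 3, so these groups overlapped, while every knockout liver lay above every young liver. Means were 0.966 ± 0.398 (SD, n = 3), 2.38 ± 1.58 (SD, n = 3) and 3.68 ± 1.35 CPM (SD, n = 4). The log2 change with age was 1.29 (SE 0.52), with an edgeR adjusted p of 0.0920, which did not pass. Without old control replicate 3 it was 1.64, with an edgeR adjusted p of 0.0199; without old control replicate 1 it was 0.63, with an edgeR adjusted p of 0.353.

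Cd79b (chromosome 11, 106311341 to 106314762, minus strand), the partner chain, showed the largest change with age of the 8 genes. Its levels were 0.734, 0.264 and 0.127 CPM in the young livers, 4.08, 4.19 and 1.14 in the old controls and 2.498, 6.06, 4.24 and 3.21 in the knockout livers. Every old liver lay above every young one, and old control replicate 3 was again the lowest of the old livers. Means were 0.375 ± 0.319 (SD, n = 3), 3.14 ± 1.73 (SD, n = 3) and 4.001 ± 1.55 CPM (SD, n = 4). Cd79b rose 8.17-fold with age, with a 95% confidence interval from 3.05 to 21.9 (log2 change 3.03, SE 0.65, edgeR adjusted p 0.0123). Without young replicate 2 the edgeR adjusted p was 0.0612. Young replicate 3, with 2 counts, was under the detectable amount and young replicate 2, with 4 counts, just above it, so the size of this fold is poorly bounded.

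The 2 chains act as 1 unit, and their balance could be read inside each library without any scaling. Young livers had 0.522, 0.308 and 0.2 Cd79b counts per Cd79a count. Old controls had 0.988, 2.14 and 1.09, and the knockout livers had 0.956, 1.09, 1.15 and 1.12. Every old liver thus lay above every young liver in this ratio, and the 4 knockout livers lay within a narrow band. The ratio was chosen after the values had been seen, was not tested, and rests on 18 Cd79b counts over the 3 young libraries.

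Ms4a1 (chromosome 19, 11249675 to 11266241, minus strand) encodes CD20, a surface protein of mature B cells. The young livers held 4, 1 and 1 counts, 0.245, 0.0659 and 0.0633 CPM, so that replicates 2 and 3 were under the detectable amount. Old controls held 11, 13 and 10 counts, 0.540, 0.592 and 0.477 CPM, and knockout livers held 23, 33, 25 and 20 counts, 1.34, 1.44, 1.18 and 1.17 CPM. The 3 groups did not overlap, with the young livers lowest and the knockout livers highest. With age Ms4a1 rose by a log2 change of 2.03 (SE 0.49, 95% confidence interval 0.95 to 3.12, edgeR adjusted p 0.018). The call was lost without young replicate 2, young replicate 3 or old control replicate 2, with edgeR adjusted p-values of 0.0775, 0.0629 and 0.0571. An antisense gene of the table, 4930526L06Rik, overlaps Ms4a1, and strand use in the counting is not given in the sources used here, so reads of the pair cannot be told apart.

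Cd22 (chromosome 7, 30865402 to 30880342, minus strand) encodes an inhibitory co-receptor that dampens the antigen receptor. It had 1.77, 1.45 and 1.33 CPM in young livers, 5.21, 9.34 and 2.53 in old controls and 5.58, 7.46, 6.59 and 5.19 in knockout livers. Every old liver exceeded every young one, with the highest value in old control replicate 2 and the lowest old value in old control replicate 3. The rise with age was 3.74-fold (95% confidence interval 2.01 to 6.95, log2 change 1.90, SE 0.41, edgeR adjusted p 0.0124). The edgeR adjusted p was 0.0584 without young replicate 2. Cd22 and Cd79b were the genes still called when old control replicate 2 was left out: the log2 change of Cd22 was then 1.34 (edgeR adjusted p 0.0395) and that of Cd79b 2.76 (edgeR adjusted p 0.0420).

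Blk (chromosome 14, 63372836 to 63417037, minus strand) encodes a kinase of the SRC family that acts at the receptor. Young livers had 0.245, 0.198 and 0.190 CPM, at the edge of detection. Old controls had 1.52, 0.683 and 0.429 CPM and knockout livers 0.755, 1.44, 0.894 and 0.700 CPM. The young and old groups did not overlap, and the old control range was wide because replicate 1 lay far above the others. Blk rose by a log2 change of 2.02 (SE 0.57, edgeR adjusted p 0.0305) with age. It fell short of the threshold when any of 5 of the 6 control livers was left out, with edgeR adjusted p-values up to 0.102, and kept it only without old control replicate 3.

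Pou2af1 (chromosome 9, 51213708 to 51240080, plus strand) encodes the co-activator OCA-B, used by B cells and plasma cells. It had 0.367, 0.330 and 0.443 CPM in young livers, 1.28, 1.503 and 0.668 in old controls and 2.21, 2.22, 1.84 and 1.11 in knockout livers. Every old liver lay above the young ones, while the 2 old groups overlapped. The log2 change with age was 1.58 (SE 0.43, edgeR adjusted p 0.0267). Like Blk, it kept the call without old control replicate 3 and lost it without any one of the other control livers, with edgeR adjusted p-values from 0.0527 to 0.0977.

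Among the plasma cell genes the livers ordered differently. Jchain (chromosome 5, 88519809 to 88527891, minus strand) had 4.65, 1.98 and 2.22 CPM in young livers, 10.7, 25.0 and 4.62 in old controls and 18.4, 5.89, 11.3 and 9.21 in knockout livers. Young replicate 1 and old control replicate 3 held nearly the same level, so the groups of the age comparison overlapped by a small margin. Means were 2.95 ± 1.48 (SD, n = 3), 13.5 ± 10.5 (SD, n = 3) and 11.2 ± 5.27 CPM (SD, n = 4). Jchain rose 4.55-fold with age (95% confidence interval 1.81 to 11.4, log2 change 2.19, SE 0.60, edgeR adjusted p 0.0275). Without old control replicate 2, the liver with the high granulocyte genes, the log2 change was 1.37, with an edgeR adjusted p of 0.12. The call was also lost without young replicate 2 or 3, with edgeR adjusted p-values of 0.11 and 0.0876.

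Mzb1, the antibody chaperone, had 0.306, 0.264 and 0.507 CPM in young livers, 1.38, 1.32 and 0.381 in old controls and 1.45, 0.698, 1.04 and 1.05 in knockout livers. Old control replicate 3 lay inside the young range and all other old livers lay above it. The log2 change of 1.498 (SE 0.53) did not pass, with an edgeR adjusted p of 0.0643. A neighbouring gene overlaps Mzb1 on the same strand, so part of its reads may be shared. Tnfrsf17, the survival receptor of long-lived plasma cells, had 0 counts in every young liver, 2 counts in old control replicate 2, 2 each in knockout replicates 1 and 4 and 0 elsewhere. All its libraries were at or under the detectable amount, so no change can be given.

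**Figure D1:**
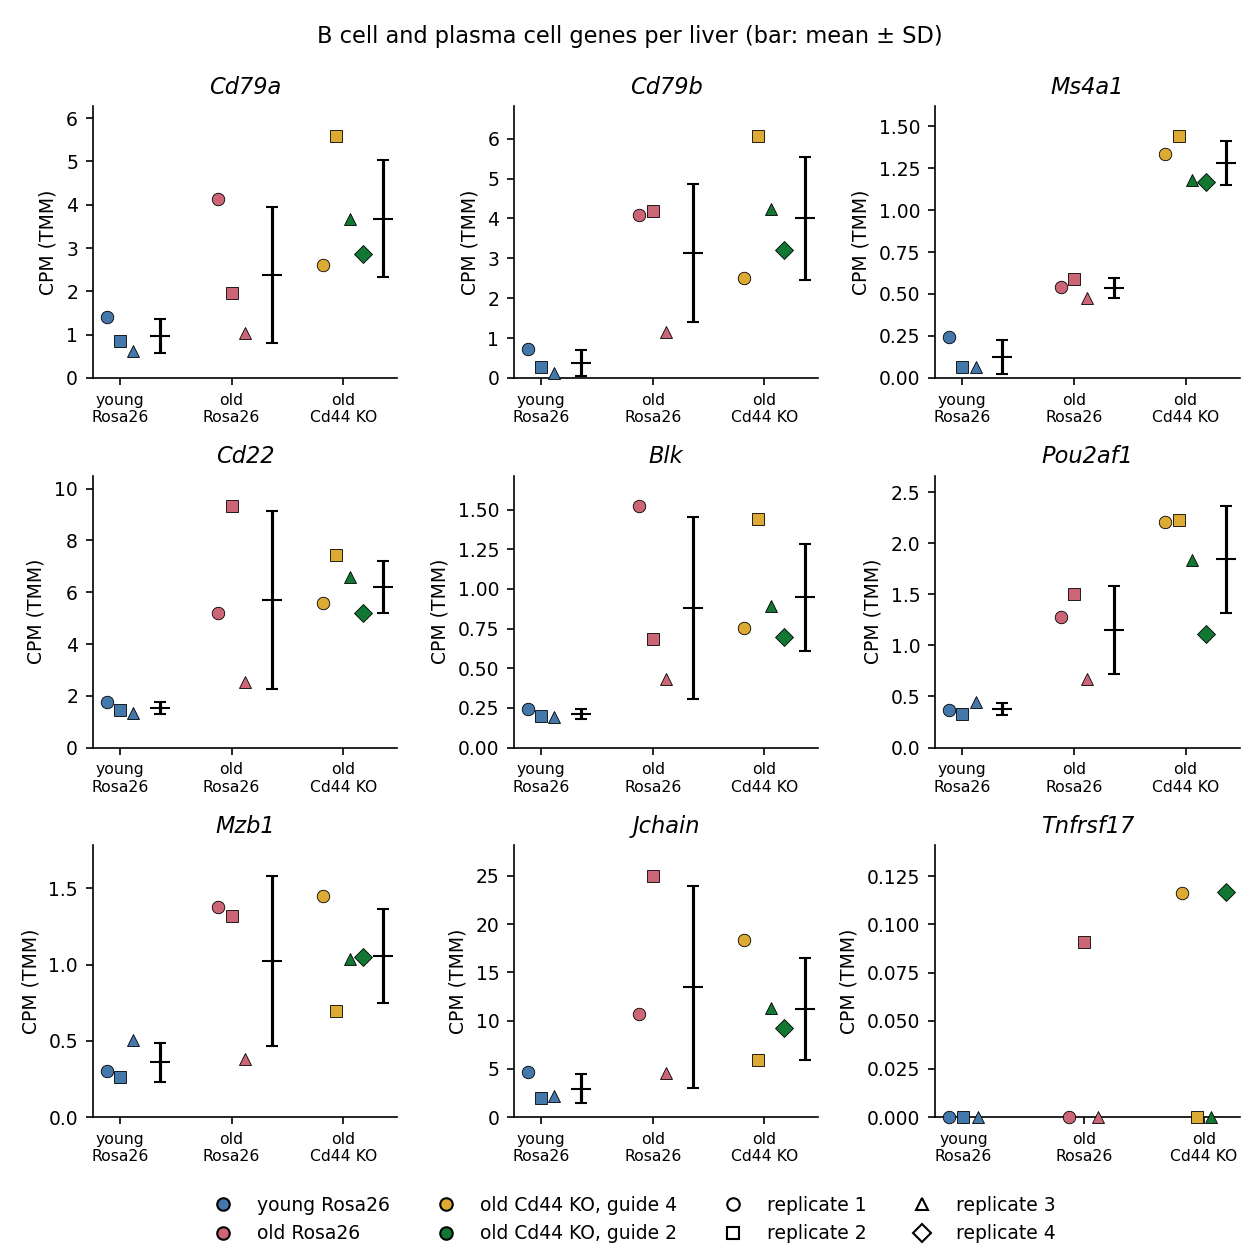
CPM with TMM factors of each gene in each of the 10 livers, by group on the horizontal axis, with colour for group and guide, symbol shape for replicate and a bar for mean ± SD (none for Tnfrsf17, whose counts never exceeded 2). Old control replicate 3 is the lowest old liver for all 8 tested genes, and the 3 groups separate for Ms4a1.

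Per length of merged exons, a rough way to set levels of different genes side by side, the order of means was the same in both old groups. On the scale of CPM per kilobase of merged exons, Jchain was highest in the knockout livers with a mean of 4.45 (2.34 to 7.29), followed by Cd79b with 2.80 (1.75 to 4.24) and Cd79a with 2.53 (1.79 to 3.83). These 3 overlapped over livers. Cd22 with 1.23 (1.03 to 1.48), Mzb1 with 0.871 (0.574 to 1.20), Pou2af1 with 0.723 (0.435 to 0.872) and Blk with 0.351 (0.259 to 0.533) came next, each overlapping its neighbour in this order. Gaps without overlap lay between Cd79a and Cd22 and between Blk and Ms4a1, which had 0.207 (0.189 to 0.233). The last place of Ms4a1 depends on its 6187 bases of merged exons, against 2698 for Blk. Its mean in the knockout livers before this division, 1.28 CPM, was above the 0.947 CPM of Blk. In the young livers the order differed: Cd79b, with 0.262 per kilobase, stood below Cd79a (0.663), Cd22 (0.301) and Mzb1 (0.295). Jchain was again first there with 1.17.

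The second comparison asked whether these genes differ between old knockout and old control livers. No member was called by edgeR's quasi-likelihood test, and neither was any of the 13909 genes (0% called); 6.59% of all genes had an unadjusted p under 0.05, and DESeq2 called 8 genes, with 0 members among them. The median log2 difference was 0.24 over the 8 genes and -0.02 over all genes. Ms4a1 was the member with an unadjusted p under 0.05. It was 2.37-fold higher in the knockout livers (95% confidence interval 1.40 to 4.003, log2 difference 1.24, SE 0.34), with an unadjusted edgeR p of 0.00396 and an adjusted p of 0.744. Its groups did not overlap, which held for 2.84% of all genes tested in the higher direction. Ms4a1 was thus higher in 4 of 4 knockout livers than in any old control, and this did not pass the correction over all genes.

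For the other genes the interval of the difference included 0. Pou2af1 had a log2 difference of 0.68 (95% confidence interval -0.08 to 1.44) and Cd79a of 0.64 (-0.33 to 1.61). Cd79b, Cd22, Blk and Mzb1 had log2 differences of 0.36, 0.13, 0.13 and 0.03. Jchain alone was below 0, with -0.27 (-1.40 to 0.86). These intervals include a doubling for Cd79a, Cd79b, Blk and Pou2af1 and a halving for Jchain. The interval of Mzb1 (-0.93 to 0.99) came close to both. The data therefore do not show that these genes were alike in the 2 groups.

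**Figure D2:**
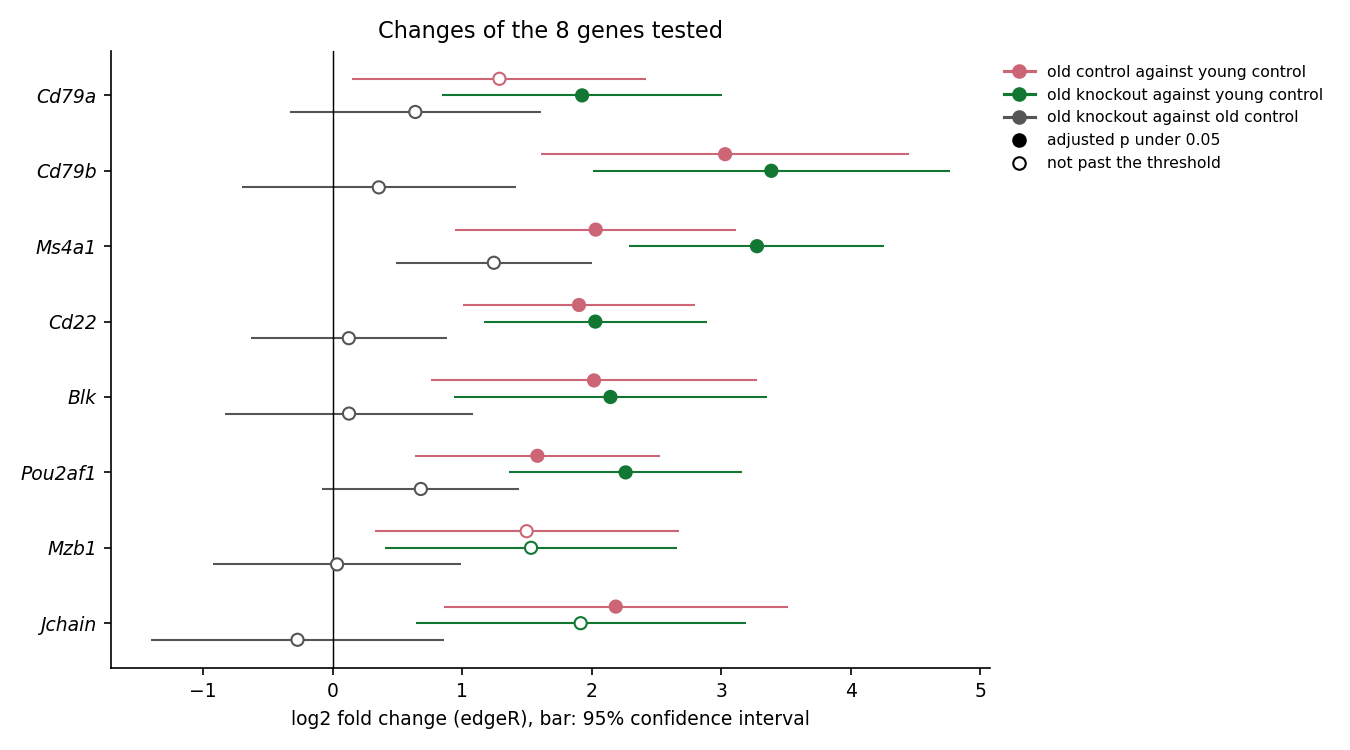
Log2 fold change (horizontal axis) of the 8 genes tested in 3 comparisons, with bars for the 95% confidence interval from edgeR and filled symbols for an adjusted p under 0.05. Changes of both old groups against the young livers lie between 1.29 and 3.39, and those between the old groups lie between -0.27 and 1.24; the first comparison shares its young livers with the second and its old controls with the third.

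Old knockout livers were also set against young controls, a comparison that shares the young livers with the age comparison and differs from it in both age and guide. Here 6 of the 8 genes tested were called higher and 0 lower by edgeR, where 6.64% of all genes were called higher and 4.97% lower. Cd79a was called in this comparison (log2 change 1.93, SE 0.49, edgeR adjusted p 0.0347), as were Cd79b (3.39), Ms4a1 (3.28), Pou2af1 (2.26), Blk (2.14) and Cd22 (2.03). The plasma cell genes Jchain, with 1.91 and an edgeR adjusted p of 0.0539, and Mzb1, with 1.53 and 0.0709, did not pass. All 8 tested genes had no overlap between the groups, against 21.1% of all genes in the higher direction. Cd79b, Ms4a1, Blk, Pou2af1 and Mzb1 passed the filter through the old livers, and the knockout livers are among these. A call or a separation in the higher direction was therefore favoured for these genes, which the shares of all genes do not allow for. The call count fell to 1, Ms4a1, without young replicate 2 or without young replicate 3. Cd79a and Blk each lost the call when any of 6 of the 7 livers was left out, with edgeR adjusted p-values up to 0.136 for Cd79a and 0.132 for Blk, and kept it only without knockout replicate 1.

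Between the guides, no member was called (guide 4 against guide 2, 2 livers each), and 0.0216% of all genes were called by edgeR. Log2 differences of the members ran from 0.02 for Mzb1 to 0.58 for Pou2af1, and the lowest edgeR adjusted p was above 0.999. Ms4a1 and Pou2af1 had both guide 4 livers above both guide 2 livers, as 18.1% of all genes did. For Cd79a, Cd79b, Cd22, Blk, Mzb1 and Jchain, the guide 4 livers lay further apart than the means of the guides. Knockout replicate 2 had the highest Cd79a, Cd79b, Cd22 and Blk of the knockout livers and the lowest Jchain and Mzb1, while replicate 1, with the same guide, had the highest Jchain and Mzb1 and the lowest Cd79a and Cd79b.

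The balance of Jchain to Cd79a was read inside each library; the ratio was chosen after the values had been seen and was not tested. Young livers had 3.30, 2.31 and 3.5 Jchain counts per Cd79a count. Old control livers had 2.60, 12.8 and 4.41, and knockout livers 7.02, 1.06, 3.09 and 3.22. The range over the old livers therefore spanned the whole young range on both sides, with old control replicate 2 highest and knockout replicate 2 lowest. Old control replicates 1 and 2 had nearly the same Cd79b level (4.08 and 4.19 CPM) and unequal Jchain levels (10.7 and 25.0 CPM). In the same pair of livers Mzb1 was nearly equal (1.38 and 1.32 CPM) and Cd79a was not (4.13 and 1.96 CPM).

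Set against Ptprc, which encodes CD45 and marks all leukocytes, the B cell genes followed a different course. The 5 genes Cd79a, Cd79b, Ms4a1, Cd22 and Blk together had 42.1, 46.7 and 43.0 counts per 100 Ptprc counts in the young livers. Old controls had 95.7, 44.5 and 25.2, and knockout livers 74.3, 79.9, 77.4 and 73.5. Old control replicate 2 was within the young range, replicate 3 below it and replicate 1 above it, and the 4 knockout livers lay close together above the young ones and inside the range of the old controls. Relative to Ptprc, then, the old controls as a group did not lie on one side of the young livers. Ptprc itself rose 3.46-fold with age (edgeR adjusted p 0.00936). Relative to the summed Cd3d, Cd3e and Cd3g counts of T cells, the same 5 genes had a ratio of 4, 1.96 and 1.95 in young livers, 3.94, 1.97 and 3.81 in old controls and 2.5, 3.29, 3.71 and 3.36 in knockout livers, and all groups overlapped.

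**Figure D3:**
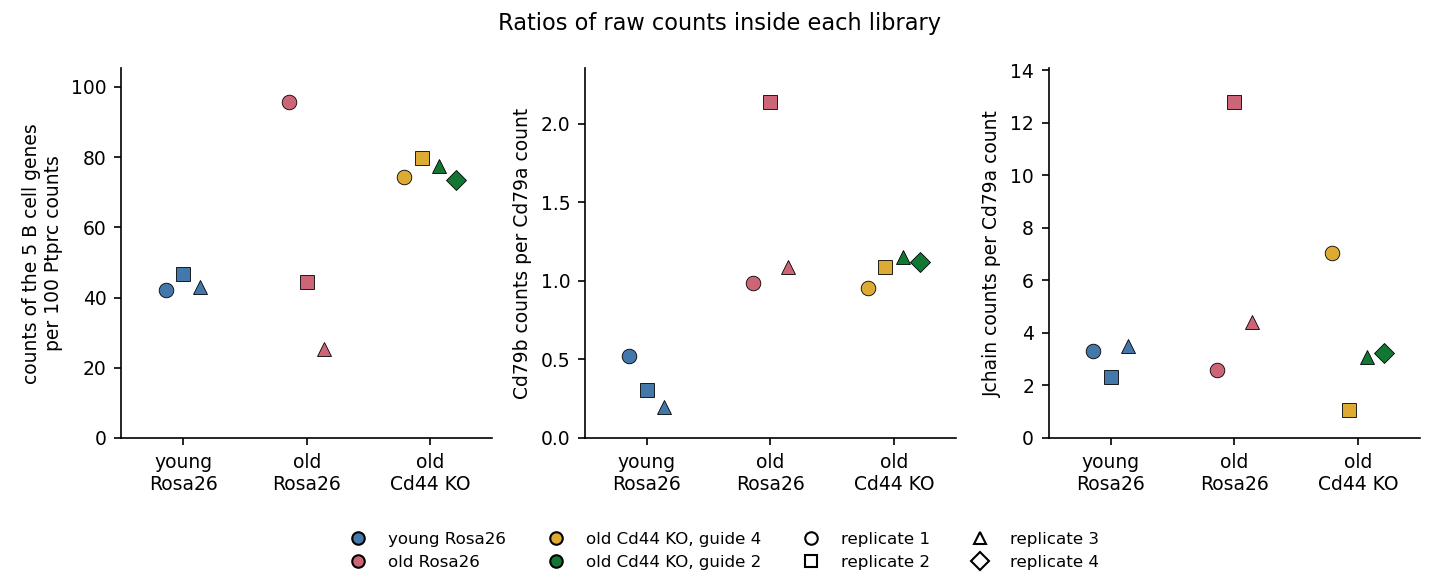
Ratios of raw counts inside each library, by group, with colour for group and guide and shape for replicate. The 5 B cell genes per 100 Ptprc counts spread from 25.2 to 95.7 in old controls and from 73.5 to 79.9 in knockout livers; Cd79b per Cd79a is higher in every old liver than in any young one; Jchain per Cd79a is highest in old control replicate 2 at 12.8.

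The counts of called genes in the lists that follow stand against 14.1% of all genes called higher with age and 8.66% lower, and a list of few genes with 1 called is near that background. List genes with few counts in the young livers, such as Bank1, Fcrl1 and Irf4, also passed the filter through the old livers, which favoured calls in the higher direction. Of 22 genes of B cell receptor signalling and its co-receptors, all tested, 19 rose and 0 fell with age, with a median log2 change of 1.77. Bank1, a scaffold protein of B cell signalling, rose by 3.003 (edgeR adjusted p 0.00667), from 0.317 to 0.428 CPM in young livers to 2.15 to 4.28 in old controls. The kinase Btk rose by 2.62 and the phospholipase Plcg2 by 2.503, both highest in old control replicate 2 at 10.2 and 14.7 CPM. Fcrl1, of the Fc receptor-like family, rose by 2.60. Several genes of this list, such as Syk, Plcg2, Inpp5d and Fcgr2b, are also used by myeloid cells.

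Of 12 B lineage transcription factors, 4 rose with age and 0 fell. Ikzf3 rose by 2.24, Ikzf1 by 1.70, Spib by 1.51 and Irf8 by 1.30 on the log2 scale, and the other 8 were not called. Irf8 had 7.98 to 9.67 CPM in young livers, above every member there. The cells these transcripts came from were not measured. Pax5, the factor that holds B cell identity, did not pass: it had 2, 1 and 2 counts in young livers, 22, 5 and 0 in old controls and 4, 22, 13 and 9 in knockout livers. Old control replicate 1 was thus high in Pax5, and replicate 3 held no Pax5 read. Of 15 tested genes of the B cell surface and homing, 9 rose and 0 fell. Tnfrsf13c, the receptor for the survival factor BAFF, was called higher with 0, 1 and 0 counts in young livers and 11, 13 and 4 in old controls, too few in the young to size the change. Cd40 rose by 1.85, H2-Ob by 1.81 and Cd24a by 1.91. Fcer2a, the low affinity IgE receptor of resting B cells, did not pass, with 55, 13 and 1 counts in old controls.

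The genes listed as plasma cell programme did not move as 1 block. Of 15 genes tested, 4 rose with age (Irf4 by 2.17, Slamf7 by 1.77, Cd27 by 1.65 and Prdm1 by 1.44 on the log2 scale) and 2 fell, with log2 changes of -1.18 for Xbp1 and -0.69 for Ell2. The median of the list was -0.35. Irf4 and Prdm1 encode the transcription factors that direct plasma cell differentiation, and both are also used by T cells. Xbp1 is a factor of secretory cells that hepatocytes use too: it had 480, 757 and 589 CPM in young livers and 198, 223 and 384 in old controls, and how much of it came from plasma cells was not measured. The endoplasmic reticulum genes Txndc5, Ssr4 and Creld2 did not pass, with log2 changes of -0.46, -0.35 and -2.28. In young livers Ell2 had 66.9 to 77.7 CPM, Txndc5 237 to 257, Ssr4 108 to 136 and Creld2 156 to 292. Jchain had 1.98 to 4.65 CPM there. The cells these transcripts came from were not measured, so the list median cannot be read as a change of plasma cells.

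In the list of B cell survival factors, their receptors and B cell chemokines, 4 of 8 tested genes were higher with age and 0 lower. The called genes included the receptor Tnfrsf13c, already counted in the surface list, with few counts in young livers. Tnfsf13b, which encodes BAFF, rose by 2.04 (edgeR adjusted p 0.0111), from 0.253 to 0.367 CPM in young livers to 0.811 to 1.91 in old controls. Tnfsf13, which encodes APRIL, rose by 1.49, and Ccl19, a chemokine of lymphoid zones, by 1.39. Cxcl13, the chemokine that draws B cells into follicles, did not pass (edgeR adjusted p 0.0538): it had 1.72, 101 and 47.3 CPM in the old controls, with replicate 1 below the lowest young liver at 2.11. The old control with the highest Pax5 therefore had the lowest Cxcl13 of its group.

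Among genes of IgA transport and gut homing, 1 of 4 tested rose, Itgb7 by 1.48, while Pigr, the hepatic and mucosal carrier of polymeric antibody that needs the J chain, had 1279 to 1533 CPM in young livers and 1100 to 1894 in old controls and did not pass. Of 7 tested genes linked to age-associated B cells, 3 rose, Tlr7 by 2.15, Itgax by 2.14 and Cxcr3 by 2.01, all of which other leukocytes also use. Of 4 tested germinal centre genes, 0 rose and Fas fell, with a log2 change of -0.48. No precursor gene was called of 2 tested, and Vpreb2 and Rag2 had no count in any liver. In old knockout against old control livers, no gene of any of these lists was called by edgeR. Against young livers, the knockout livers had 13 of 22 receptor signalling genes called higher, 3 of 12 transcription factors, 7 of 15 surface genes and 2 of 15 plasma cell programme genes, with 3 of the latter lower, where 6.64% of all genes were called higher and 4.97% lower.

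**Figure D4:**
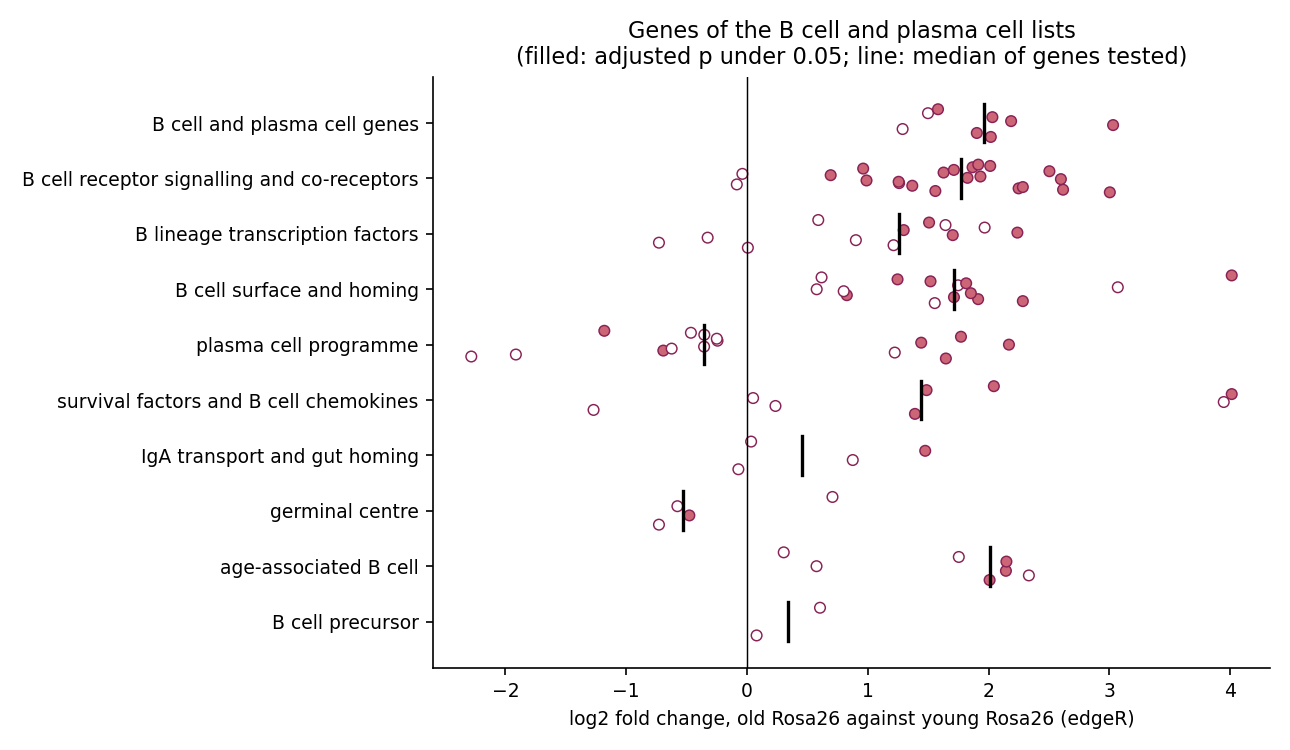
Log2 fold change of old against young controls (horizontal axis) for each tested gene of the lists named on the vertical axis, filled where the edgeR adjusted p was under 0.05, with a line for each list's median. The medians are 1.96 for the 8 B cell and plasma cell genes, 1.77 for receptor signalling and -0.35 for the plasma cell programme; the position of Tnfrsf13c, near 4 in the surface and survival lists, rests on 1 count in the young libraries.

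Markers of several other cell types were also called higher in the age comparison. All 5 pan-leukocyte genes rose, with summed levels of 42.6 to 61.4 CPM in young livers, 106 to 283 in old controls and 105 to 170 in knockout livers. T cell genes rose in 5 of 11 tested, with sums of 5.51 to 5.87, 6.72 to 55.2 and 13.3 to 32.4 CPM. Kupffer cell genes rose in 4 of 5, with sums of 145 to 186, 272 to 912 and 221 to 423 CPM, and granulocyte genes in 4 of 4 tested, with sums of 3.36 to 8.87, 13.7 to 293 and 7.61 to 22.9 CPM. Genes of monocyte-derived macrophages rose in 3 of 6, with sums of 37.7 to 46.2, 55.1 to 116 and 52.0 to 68.0 CPM, and NK cell genes in 1 of 5 tested, with sums of 2.11 to 3.30, 4.10 to 16.5 and 6.68 to 10.9 CPM. No conventional dendritic cell gene of 6 was called, with sums of 6.65 to 7.28, 5.39 to 22.5 and 9.47 to 15.4 CPM. Outside the leukocytes, megakaryocyte and platelet genes rose in 3 of 3 tested, with sums of 3.06 to 4.88, 8.06 to 91.4 and 6.51 to 14.9 CPM, and liver endothelium genes in 4 of 6, with sums of 114 to 167, 246 to 289 and 173 to 195 CPM. Of 5 erythroid genes tested, 0 rose and 1 fell, with sums of 1136 to 1219, 866 to 1747 and 1036 to 2297 CPM. Their part in the changes of the B cell and plasma cell genes was not tested. Summed over the 5 B cell genes, the levels were 2.34 to 4.40 CPM in young livers, 5.63 to 16.8 in old controls and 12.8 to 22 in knockout livers.

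Plasmacytoid dendritic cells share some transcripts with the B lineage, and 1 of their 4 tested markers rose with age, Tcf4. The marker Siglech of these cells had 0.198 to 0.612 CPM in young livers, 0.191 to 0.688 in old controls and 0.436 to 0.942 in knockout livers, so its ranges in young and old controls nearly coincided. It rested on 10, 3 and 5 counts in young livers and 14, 8 and 4 in old controls. Runx2 and Bst2 were not called, with log2 changes of 1.96 (edgeR adjusted p 0.0823) and -0.12. In young livers Tcf4 had 8.97 to 11.4 CPM and Bst2 221 to 306, far above Siglech, and the cells these 2 transcripts came from were not measured. Against the mean of the young livers, old control replicate 2 was raised 9.64-fold in T cell genes, 8-fold in the plasma cell sum and 5.25-fold in the B cell sum. Jchain made up 25.0 of the 26.5 CPM of that plasma cell sum. Old control replicate 3 was raised 3.64-fold in Kupffer cell genes and 2.81-fold in pan-leukocyte genes, with only 1.76-fold in the B cell and 1.51-fold in the plasma cell sum. The livers of 1 group thus differed in which leukocyte genes were high.

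**Figure D5:**
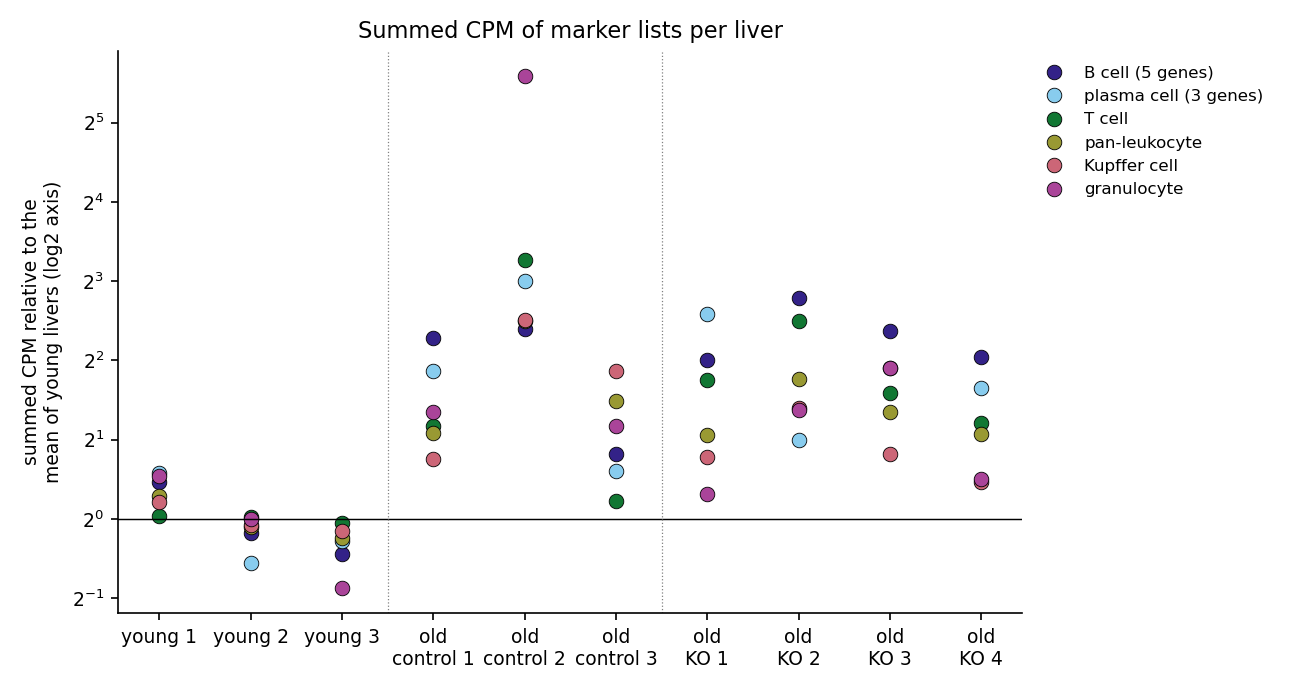
Summed CPM of 6 marker lists in each liver, divided by the mean of the young livers and drawn on a log2 axis, with 1 column of points per liver. Old control replicate 2 is the highest liver for granulocyte, T cell, plasma cell, pan-leukocyte and Kupffer cell genes, and knockout replicate 2, at 6.88, is the highest for B cell genes.

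The genes whose levels ran most closely with Cd79a over the 10 livers included the B cell co-receptor Siglecg and the transcription factor Spib. By Pearson's r of log2 CPM, those closest outside the members included Agbl5 (0.946), Pnldc1, Siglecg (0.942), Ss18l1, Spib (0.938), H2-Ob (0.936), Spsb2, Mrnip and Btla (0.928). Over the 7 old livers alone, r was 0.921 for Spib and 0.861 for Siglecg. The 10 closest to Jchain were Gm14005 (0.949), Aard, Foxj1, Cutc, Cpxm1, Rassf5, Ppfia4, Msantd3, Fam110a and Rtn1 (0.915). These values describe 10 livers that share age groups and library composition, and carry no test.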

How the data were processed

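The submitters' processing notes name FastQC 0.11.8, Trim Galore 0.4.4, STAR 2.5.3a, HOMER and the build mm10, with no order or settings; strand use is not given in the sources used here. The authors deposited 1 table of raw counts: each of its 10 columns is a liver, each row a gene symbol, and no value was normalized. A search of its symbols found 0 immunoglobulin gene segments, so antibody transcripts, the main product of plasma cells, could not be followed. Counts were tested with edgeR 4.0.16 in R 4.3.3: TMM factors, filterByExpr (minimum count 10, minimum total 15), 1 coefficient per group over all 10 libraries, the quasi-likelihood test, and Benjamini-Hochberg adjustment over 13909 genes. The guides were compared in a fit with a coefficient for each guide. The standard error is the log2 change divided by the square root of F. DESeq2 1.42.0 was an alternative, as were other scalings, no filter, fits of the compared groups alone and leaving out each liver.

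The labels do not say whether livers of a group are separate animals, so p-values measure only the spread between these samples. Counts of livers within a group differed by more than sampling noise (chi-square per degree of freedom at least 20.3). Members and lists were chosen with earlier results of these data known. Of 197 list entries, 4 matched no symbol. All members are named. From other lists, up to 5 called genes per list were named by size of change. Others singled out (Pax5, Fcer2a, Cxcl13, Pigr, Siglech, Runx2, Bst2, Ell2, Txndc5, Ssr4, Creld2, Vpreb2, Rag2) were chosen after their values were seen. Genes most alike to Cd79a and Jchain used log2 CPM with a prior count of 2. Gene positions are GENCODE on GRCm38, the assembly of mm10. Some results are not reported here.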

Additional observations from a re-analysis of the deposited data

How the results depend on the processing

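No paired analysis was run, because the labels give no pairing of livers between groups. Directions of the 8 genes did not reverse under any alternative that gave a value in old control against young or in old knockout against young, while adjusted p-values crossed the threshold often. In old against young controls, the members called higher went from 6 to 2 when only the groups compared were fitted (2 of 5 tested, since Ms4a1, Blk and Mzb1 did not pass the filter there), and ranged from 0 (without young replicate 2) to 8 (without old control replicate 3) when each liver was left out; they were 2 without young replicate 3 or without old control replicate 2. All genes called went from 3172 to 1192 with only these groups, and ranged from 396 to 5327 with each liver left out. Among the alternatives that left out no single liver, the most members called higher was 8. The most genes called among them, with total counts, was 4226. For old knockout against young, members called ranged from 1 to 6 with each liver left out, and all genes called went from 1614 to 3585 with total counts (92.9% higher, against 57.2%), 2803 with DESeq2 and 4223 with only these groups, ranging from 56 to 1652 with each liver left out. Members called higher there ranged from 6 to 8 under the alternatives that left out no single liver.

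For old knockout against old control, all genes called went from 0 to 8 with DESeq2 and 2 with guide 2 alone, ranging from 0 to 3 with each liver left out, and members called stayed at 0. Blk reversed to -0.12 with guide 2 alone. Leaving out each liver gave log2 ranges across 0 for Cd79b (-0.037 to 0.63), Cd22 (-0.23 to 0.69), Blk (-0.20 to 0.77), Mzb1 (-0.36 to 0.30) and Jchain (-0.68 to 0.54), and kept Ms4a1 between 1.17 and 1.32. Between guides, all genes called went from 3 to 73 with DESeq2, 10 without the filter and 31 with only these livers, and to 0 with any liver left out; ranges across 0 were Cd79a -0.32 to 0.77, Cd79b -0.58 to 0.70, Cd22 -0.081 to 0.34, Blk -0.084 to 0.84, Mzb1 -0.58 to 0.48 and Jchain -0.80 to 0.83. The cause of these shifts was not tested. Where a liver was left out of a guide, the remaining one was assumed to vary like the others. Depth limits Tnfrsf17, and Ms4a1, Blk and Cd79b in the young livers, to a few counts.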
